A study of Mus musculus with 16 samples.

Results

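The control lines compared here were 4TO7 cells infected with one and the same empty vector, pMSCV-puro, and labelled in the series as controls for different experiments. They comprised 4 of the 16 arrays and 2 of the 8 groups of the series and were chosen by sample title. The group titled Puro vec control for Cluster 1 (repeats A and B) served as the control of cells given the miR-200 Cluster 1. The group titled CDH1 Puro vec control (repeats A and B) served as the control of cells given CDH1, which encodes E-cadherin. 4TO7 is a mouse mammary carcinoma line. All groups were kept in DMEM with 10% FBS and antibiotics, and the 2 control groups carried no insert by their labels. Cells with miR-200 Cluster 1 and cells with CDH1, each on pMSCV-puro as far as their controls show, lay on the same slides and serve below as a second comparison across those slides. From each sample 175 ng of total RNA was labelled with Cy5 and hybridised with Cy3-labelled Universal Mouse Reference RNA, a pool from 11 mouse cell lines. The 4 arrays of the CDH1 experiment shared slide 3 and the 4 arrays of the Cluster 1 experiment shared slide 4. Slide and control line therefore cannot be told apart in the direct comparison. The design calls repeats A and B biological replicates, but whether they came from separate infections or cultures no label says, so p-values measure only the spread between these arrays.

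A retroviral vector without an insert integrates at positions that differ from cell to cell, and the cells that survive puromycin are carried on as a subline. Carcinoma lines are mixtures of cells that can differ in karyotype and in the activity of inducible programs such as the interferon response, in which secreted interferons act through STAT and IRF factors on genes for antiviral proteins and antigen presentation. The interferon, acute phase, unfolded protein and proliferation programs are each known to move many genes together, and a difference in any of them between control lines enters each experiment that is read against its own control.

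Values are log2 ratios of sample over reference RNA, normalised within each array. A gene was called when limma's two-sided moderated test, over the 8 group means of all 16 arrays, gave a Benjamini-Hochberg adjusted p below 0.05. The median absolute log2 difference between repeats of a group was 0.0828 to 0.108. Between arrays of the 2 control lines it was 0.126 to 0.137, and between arrays of Cluster 1 and CDH1 cells 0.13 to 0.146. CDH1 Puro vec control B stood apart in signal: 50.7% of its genes were well above background, against 77.3% on repeat A of that group and 80.4% to 93.1% on the 6 other Cy5 arrays.

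The control lines with the same empty vector differed at many genes, mostly by small amounts. Of 18983 genes tested, 1908 (10.1%) were called, 928 higher (4.89%) and 980 lower (5.16%) in the Cluster 1 control line than in the CDH1 control line. A difference of 2-fold or more was reached by 10 of the higher and 67 of the lower genes. The lines did not overlap at any of the 1908 genes. Over all 18057 genes with values on the 4 arrays they did not overlap at 50.5%. Non-overlap named below for single called genes therefore adds nothing to their calls. The median over all genes tested was 0.01 on the log2 scale. Without Puro vec control for Cluster 1 A the count was 1096, without its repeat B 1162, and without CDH1 Puro vec control B 1132. Leaving spots marked as outliers in the background fit lowered the count to 527, of which 361 were higher, and 467 of them were among the 1908 with the same direction. Of 161 called genes named by rule, 71 kept their call in that setting and 90 lost it. Another probe passing the filter was present for 854 called genes, and 898 of these 1195 other probes (75.1%) had the same sign.

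Genes lower in the Cluster 1 control line included secreted and surface proteins of inflammation and matrix. Emilin2, an elastic fibre-associated glycoprotein, measured -1.22 and -1.22 in the Cluster 1 control line and 1.28 and 1.32 in the CDH1 control line. The difference of -2.52 (SE 0.105, limma adjusted p 5.70e-08) is 5.72-fold, and the other Emilin2 probe gave -1.79. Emilin2 lay between -1.73 and -1.38 on the 4 arrays of Cluster 1 and CDH1 cells, so the CDH1 control line alone was high. Hp, the haemoglobin-binding plasma protein haptoglobin, was at -1.23 and -0.87 against 1.17 and 0.96, a difference of -2.11 (SE 0.215, limma adjusted p 9.31e-05). Its groups did not overlap, although repeats differed by more than those of Emilin2. S100a8, a subunit of calprotectin, was at 0.29 and 0.13 against 1.85 and 1.94. Cyp26b1, which degrades retinoic acid, was at 0.01 and 0.06 against 1.73 and 1.87. As at Emilin2, S100a8 stayed between 0.31 and 0.39 and Cyp26b1 between -0.35 and -0.13 in Cluster 1 and CDH1 cells, close to the Cluster 1 control line.

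The same layout, with the CDH1 control line above all 6 other Cy5 arrays, held for Pla2g5, a secreted phospholipase, at -0.19 and -0.41 against 1.46 and 1.45. Krt76, a type II keratin, was at 0.32 and 0.41 against 2.03 and 1.93. Slc39a4, the zinc importer ZIP4, was at -0.21 and -0.12 against 1.67 and 1.62, and reached 0.48 and 0.39 in Cluster 1 cells. The values of these genes were tight within each line. Adam8, a metalloprotease of leukocytes and tumour cells, was at -2.36 and -2.36 against -0.71 and -0.61. Cav1, the coat protein of caveolae, was at -3.41 and -3.41 against -1.81 and -1.85, and its other probe differed by -0.36. Hsd11b1, which regenerates active glucocorticoid, was at -1.0 and -0.81 against 0.93 and 0.82. Among these genes Hp, Hsd11b1, Cyp26b1, S100a8 and Krt76 were not called when outlier spots stayed in the background fit, and no direction turned. Of the 15 genes with the largest falls named by rule, 13 put both CDH1 control arrays beyond every other Cy5 array, with 1 gene lacking a value. Both Cluster 1 control arrays lay beyond every other array at 6 of the 15. Over all 17501 genes with a value on the 8 arrays the shares were 18.1% and 9.33%.

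Rises in the Cluster 1 control line were smaller. Lsr, the lipolysis-stimulated receptor of tricellular tight junctions, was at 0.69 and 0.80 against -0.62 and -0.59, a difference of 1.35 (SE 0.121, limma adjusted p 2.09e-05). Wipf1, which binds the actin regulator WASP, was at 0.65 and 0.58 against -0.50 and -0.52, a difference of 1.12 (SE 0.0903, limma adjusted p 1.01e-05). Neither pair overlapped, as at every called gene, and both held in each of the alternatives tried. Ngfr, the p75 neurotrophin receptor, was high everywhere, at 3.50 and 3.54 against 2.57 and 2.65, but its other probe gave -0.08. Il11, a cytokine of the IL-6 family, was at 1.77 and 1.78 against 0.88 and 0.72. Cd24a, a surface sialoglycoprotein, was at 1.51 and 1.71 against 0.74 and 0.56. Il11 was also high in CDH1 cells (1.92 and 1.89) and low in Cluster 1 cells (0.55 and 0.48), whereas Cd24a lay between 1.34 and 1.55 in both. Tle4, a Groucho co-repressor, was at 0.14 and 0.12 against -0.84 and -0.72. Hmgb3, a chromatin protein encoded on the X chromosome, was at 0.52 and 0.54 against -0.33 and -0.46. At both, the CDH1 control line was below all 6 other arrays.

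**Figure D1:**
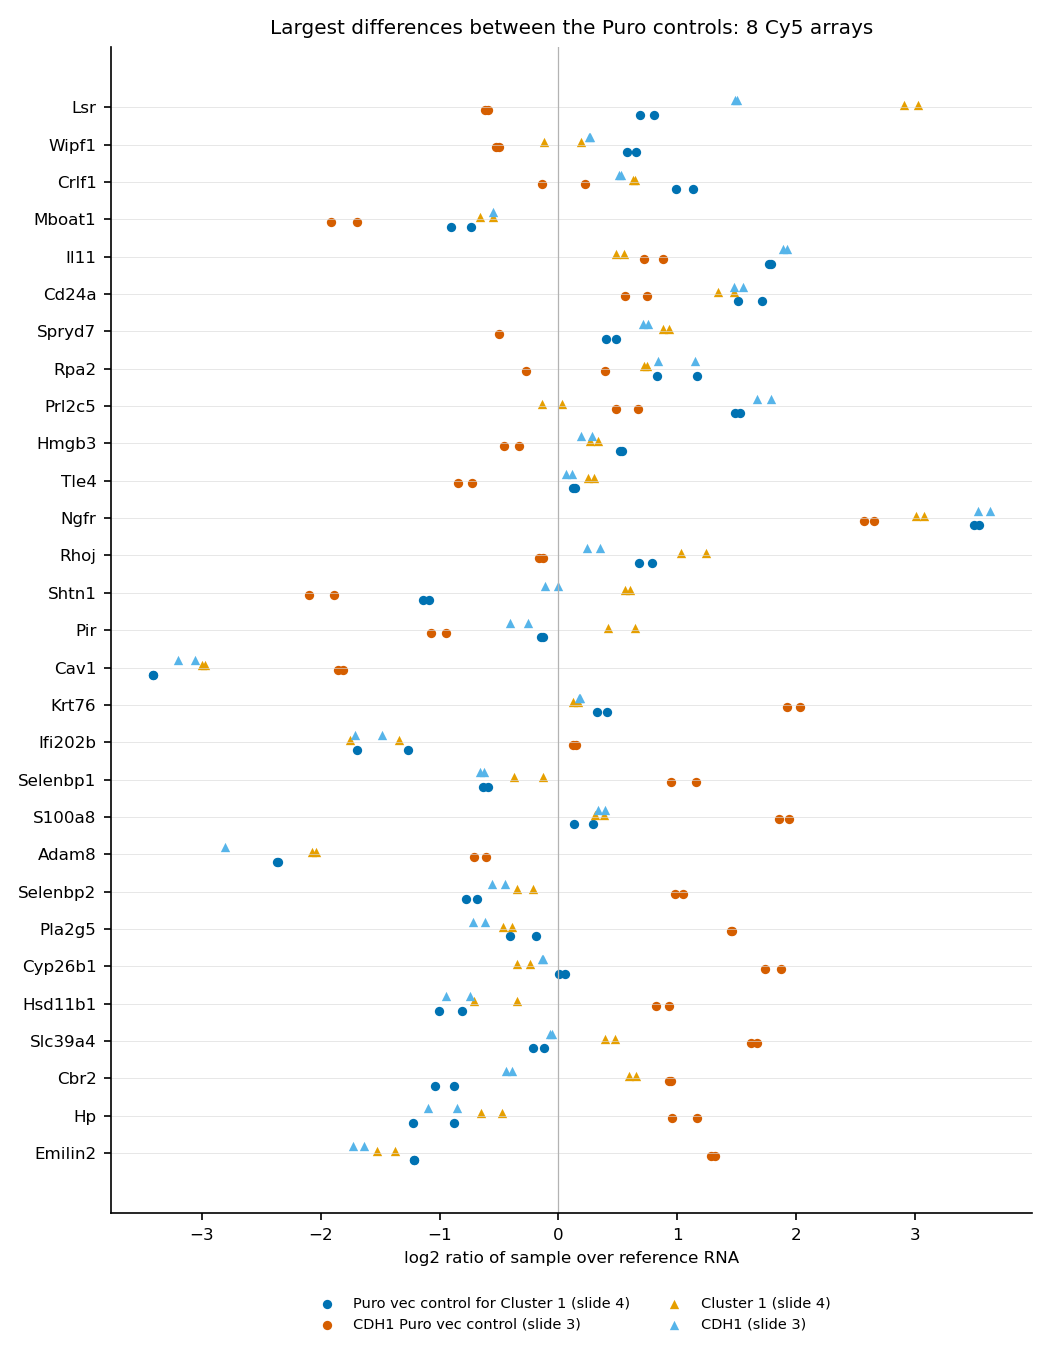
Log2 ratio of sample over reference RNA (horizontal axis) for the genes with the largest rises and falls between the Puro controls, 1 point per array on the 8 Cy5 arrays, coloured by group. At most of the falls the CDH1 Puro vec control points lie alone to the right, as at Emilin2 (1.28 and 1.32 against -1.73 to -1.22 on the other 6 arrays).

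Some called genes passed the background on both arrays of only one control line. The olfactory receptor gene Olfr849 was above background in the Cluster 1 control line alone, with a ratio difference of 0.48 (limma adjusted p 0.00359) made of 1.68 in the sample and 1.20 in the reference channel. On the sample channel by itself this is at least 2.66-fold, counted from the lowest signal well above background where the CDH1 control line was dimmer. Tmeff1, a transmembrane protein with follistatin domains, differed by 0.58 in ratio (limma adjusted p 0.00616), with parts of 0.98 and 0.41, and its call was lost without Puro vec control for Cluster 1 A without CDH1 Puro vec control B and with averaged probes. Clec10a, a galactose-binding lectin above background in the CDH1 control line alone, differed by -0.70 (limma adjusted p 0.000852), with parts of -1.32 and -0.62. None of these 3 calls held when outlier spots stayed in the background fit, and that of Olfr849 was also lost with the scanner's processed signals. Of the called genes, 45 were above background only in the Cluster 1 control line and 1 only in the CDH1 control line, which held the array with the fewest genes above background. Its part in this split was not tested.

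A ratio of sample over reference also moves when the reference signal moves, so each difference was split, after seeing the data, into a part from the sample channel and a part from the reference channel. The ratio difference is the sample part minus the reference part. An effect on a spot that moves both channels alike cancels in the ratio but enters both parts. The split therefore describes the channels and cannot say which of the 2 RNAs differed. The reference RNA carries the same label on every array, yet its channel differed between arrays, in ranges that overlapped within and between slides. Over pairs of arrays, the median absolute log2 difference of the reference channel was 0.122 to 0.215 on the same slide (12 pairs) and 0.171 to 0.294 on different slides (16 pairs). Same-slide pairs with CDH1 Puro vec control B gave 0.210 to 0.215, the other same-slide pairs at most 0.175. The highest value, 0.294, was that array against Cluster 1 A. A 2-fold reference difference was seen at 0.317% to 4.60% of genes on the same slide and at 1.81% to 7.21% on different slides. Of 336 genes whose reference part reached 1 in size between the control lines, 113 (33.6%) did so with the same sign between Cluster 1 and CDH1 cells, which lay on the same slides and share no array with the controls.

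Of the 1908 called genes, 890 (46.6%) were also called in the same direction on the sample channel alone, 379 of those higher and 511 of those lower. The sample part had the sign of the ratio at 86.4% of the 1908, and the reference part was the larger at 26.3%. Among the 77 genes past 2-fold, 60 were called on the sample channel too. Emilin2 had a sample part of -2.84 and a reference part of -0.32, Slc39a4 -1.82 and 0.00, and Lsr 1.45 and 0.10. At these 3 genes the sample part was the larger. At Hp the parts were -1.30 and 0.81, and at Cav1 -1.03 and 0.55, so the channels moved in opposite directions. Cbr2, a carbonyl reductase, showed the other extreme: its ratio difference of -1.90 consisted of -0.05 in the sample and 1.85 in the reference. Selenbp1 and Selenbp2, selenium-binding proteins with near-identical sequences whose probes may not be separable, had ratio differences of -1.66 and -1.75 with sample parts of -0.36 and -0.49. Scgb3a2, a secretoglobin of airway cells, was lower by ratio (-1.74) but higher in the sample channel (1.41), with a reference part of 3.15. The counts of list members below are therefore given with the number of called members that were called on the sample channel as well. Over all genes tested 4.89% were called higher and 5.16% lower, the shares to set beside each list. The counts also moved with the processing. Over 19 alternatives the members lower ranged from 4 to 30 for interferon-stimulated genes, 3 to 12 for antigen presentation, 6 to 19 for collagens and matrix glycoproteins, 3 to 13 for integrins and adhesion receptors, and 3 to 9 for cholesterol synthesis. They ranged from 2 to 8 for fatty acid synthesis, 3 to 13 for the unfolded protein response, 3 to 8 for glycolysis, 1 to 7 for the hypoxia response, 2 to 10 for NRF2 genes and 2 to 8 for growth factor receptors and ligands. The members higher ranged from 2 to 18 for ribosome biogenesis and 2 to 9 for oxidative phosphorylation.

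**Figure D2:**
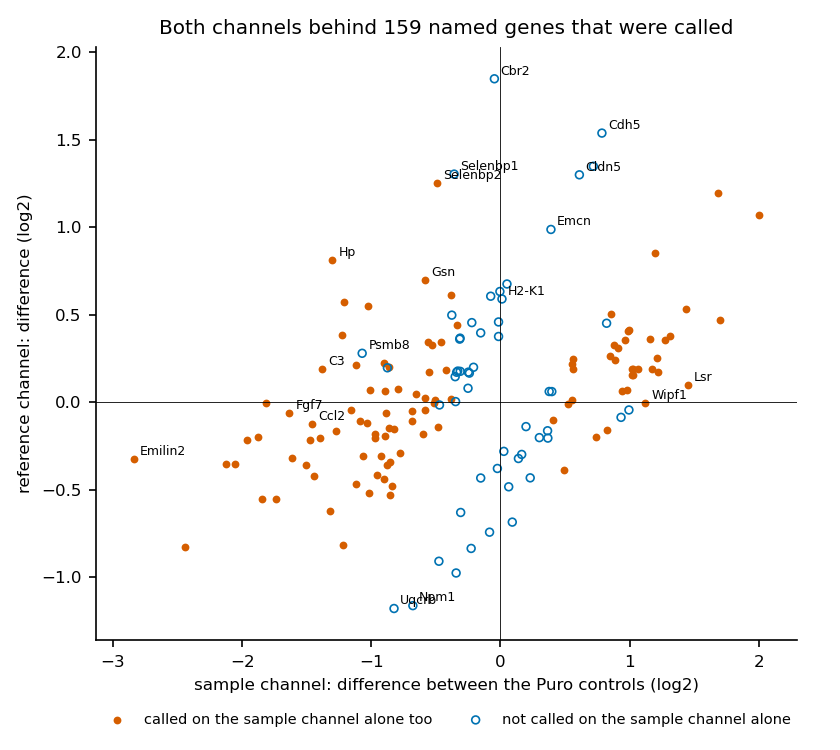
Sample channel part (horizontal axis, log2) and reference channel part (vertical axis, log2) of the difference between the Puro controls for 159 named genes that were called. Filled points, 106 genes, were called on the sample channel alone too; open points such as Cbr2 (-0.05 and 1.85) were not.

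Interferon-stimulated genes were lower in the Cluster 1 control line. Of 52 tested, 23 were lower (44.2%, against 5.16% over all genes) and 0 higher (limma, adjusted p below 0.05 over all genes; 47 of 52 differences were negative, 13 genes were above background in neither line), with a median of -0.37 against 0.01 over all genes. On the sample channel alone 15 of the 23 were called. The list's mean ratio over 50 genes with a value on all 8 Cy5 arrays was -0.63 and -0.68 in the Cluster 1 control line and -0.26 and -0.22 in the CDH1 control line. CDH1 cells were at -0.60 and -0.70 and Cluster 1 cells at -0.22 and -0.32, so each control line lay beside the overexpressing line of the other experiment. Between 4 and 30 members were lower over the 19 alternatives tried, with 4 when outlier spots stayed in.

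The 5 promoters of lower members are shown because they carry the motif read by the interferon-activated complex of STAT and IRF factors, which is GAAA, any 2 bases and GAAA. Each run is the 150 bases before the start site in RefSeq's table for GRCm38.p6, written 5′ to 3′ on the gene's strand, with matches on either strand in capitals.
Isg15, chr4:156200819-156200968, strand -: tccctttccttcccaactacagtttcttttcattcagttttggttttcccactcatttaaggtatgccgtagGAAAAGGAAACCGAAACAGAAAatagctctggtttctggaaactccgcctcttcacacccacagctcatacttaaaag
Ifi205, chr1:174031756-174031905, strand -: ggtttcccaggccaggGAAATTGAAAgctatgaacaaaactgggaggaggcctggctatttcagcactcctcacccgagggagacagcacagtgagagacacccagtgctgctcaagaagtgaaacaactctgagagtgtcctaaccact
Ifi203, chr1:173942493-173942642, strand -: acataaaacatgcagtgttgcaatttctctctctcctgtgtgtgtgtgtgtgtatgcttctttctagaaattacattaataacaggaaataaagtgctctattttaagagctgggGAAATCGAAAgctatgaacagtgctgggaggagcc
Igtp, chr11:58199406-58199555, strand +: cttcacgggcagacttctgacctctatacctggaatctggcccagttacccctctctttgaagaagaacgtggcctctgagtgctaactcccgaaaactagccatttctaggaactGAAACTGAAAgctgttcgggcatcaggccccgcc
Gbp3, chr3:142559894-142560043, strand +: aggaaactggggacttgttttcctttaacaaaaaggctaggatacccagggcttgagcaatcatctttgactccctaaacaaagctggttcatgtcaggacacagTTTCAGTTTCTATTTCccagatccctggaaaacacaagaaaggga
Overlapping matches are merged in the capitals: Isg15 holds 3 matches, Gbp3 holds 2 on the opposite strand, and the others 1 each. In windows of 300 bases, from 250 before to 50 after the start, the motif was found on either strand in 9 of 17 lower members with a promoter in the table (52.9%), in 15 of 27 other members (55.6%), and in 3.99% of 27025 genes. Lower and other members thus held it at near the same share.

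Isg15, a ubiquitin-like antiviral protein, was at -0.34 and -0.34 in the Cluster 1 control line and 0.35 and 0.25 in the CDH1 control line, a difference of -0.64 (SE 0.0692, limma adjusted p 9.31e-05). Igtp, an immunity-related GTPase, was at -0.97 and -1.07 against -0.39 and -0.33. Ifi205 was at -0.33 and -0.35 against 0.36 and 0.31, and its relative Ifi203 at -0.10 and -0.15 against 0.59 and 0.46. Groups did not overlap at any of these 4 genes, as at every called gene. Both of the last belong to the Ifi200 cluster of DNA-binding proteins on chromosome 1, whose members resemble each other so that probes may cross-hybridise. Ifi202b of that cluster fell furthest in the list, at -1.27 and -1.69 against 0.12 and 0.15. Gbp3, a guanylate-binding protein, was at -0.02 and -0.42 against 0.36 on the only CDH1 control array with a value. Rtp4, a chaperone of receptor transport, was at -1.91 and -2.05 against -0.79 and -0.92, a difference of -1.13 (SE 0.111, limma adjusted p 3.90e-05) with a sample part of -0.90. Ifi27, a mitochondrial interferon-induced protein, was at -0.59 and -0.50 against 0.28 and 0.47.

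Antigen presentation and immunoproteasome genes were called lower by ratio, and few of these calls held on the sample channel. Of 27 tested, 11 were lower (40.7%, against 5.16% over all genes) and 0 higher, with a median of -0.28. On the sample channel alone 2 of the 11 were called. The sample part had the sign of the ratio at 7 of the 11, with a median of -0.14. Psmb9, an immunoproteasome subunit, was at -1.16 and -1.16 against -0.36 and -0.22, with parts of -0.80 and 0.07. Psmb8, its partner, was at -0.53 on the only Cluster 1 control array with a value against 0.77 and 0.87, and was not called on the sample channel (-1.07). H2-K1, a class I heavy chain with close paralogues, differed by -0.58 in ratio but by 0.01 in the sample channel.

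Acute phase and chemokine genes called between the lines were mostly lower in the Cluster 1 control line. Of 25 acute phase genes and C/EBP factors, 9 were lower (36%, against 5.16% over all genes) and 0 higher. The list's median was -0.34, and 8 of the 9 were called on the sample channel. Over the alternatives 2 to 13 were lower, with 2 when outlier spots stayed in and 5 or 6 when 1 control array was left out. C3, the central complement component, was at -1.14 and -1.01 against 0.52 and 0.47, a difference of -1.57 (SE 0.0780, limma adjusted p 2.04e-07). Cebpd, the inducible C/EBP factor, was at -0.84 and -0.68 against 0.34 and 0.45. At neither gene did the lines overlap, as at every called gene. Lcn2, an iron-scavenging lipocalin, was at 0.88 and 0.69 against 1.52 and 1.44.

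Of 33 chemokines and cytokines, 11 were lower (33.3%, against 5.16% over all genes) and 2 higher. The list's median was -0.07, and 12 of the 13 were called on the sample channel. Over the alternatives 3 to 13 were lower, with 3 when outlier spots stayed in. Ccl2, which attracts monocytes, was at -0.39 and -0.39 against 0.93 and 0.97, a difference of -1.34 (SE 0.0679, limma adjusted p 2.43e-07) with a sample part of -1.46. Its neighbour Ccl7 was at -1.88 and -1.78 against -0.65 and -0.65. Cxcl1, a neutrophil attractant, was at 1.61 and 2.00 against 2.45 and 2.66. The 2 higher members were Il11 and Tslp, an epithelial alarmin, the latter at 1.98 and 1.99 against 1.35 and 1.39. The NF-kB motif (GGGA, any 2 bases and TTCC, on either strand) lay in 2 of 7 lower chemokine promoters (Csf1 and Cxcl1) and 3 of 20 other members' (15%), in 0 of 6 lower acute phase promoters and 1 of 17 others (5.88%), and in 1.63% of all genes.

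Members of the matrix, adhesion and mesenchymal lists that were called were mostly lower, beside 4.89% higher and 5.16% lower over all genes. Of 45 collagens and matrix glycoproteins, 12 were lower and 2 higher (median -0.14), with 11 of the 14 called on the sample channel. Mgp, an inhibitor of calcification, was at -0.39 and -0.18 against 1.00 and 1.09. Ecm1, a secreted glycoprotein, was at -0.35 and -0.29 against 0.89 and 0.85. The lines did not overlap at either, as at every called gene. Mgp was also high in Cluster 1 cells (1.35 and 1.13), while Ecm1 was high in the CDH1 control line alone. Of 34 mesenchymal genes, 5 were lower and 0 higher (Sparc, Fn1, Nt5e, Pdgfra and Zeb2; median -0.23), and all 5 were called on the sample channel. Between 1 and 15 members were lower over the alternatives: averaging the probes of a gene left 1, Sparc, and outlier spots kept left 2. Fn1, fibronectin, was at -2.37 and -2.30 against -1.45 and -1.40, a difference of -0.91 (SE 0.101, limma adjusted p 0.000123). Sparc, a collagen-binding protein, was at -2.19 and -2.03 against -1.17 and -1.07.

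Of 37 integrins and adhesion receptors, 12 were lower (32.4%, against 5.16% over all genes) and 0 higher. The list's median was -0.14, and 7 of the 12 were called on the sample channel. Itgb7, an integrin beta chain, was at 1.21 and 1.20 against 2.16 and 2.16. Vcam1, an integrin ligand, was at -0.82 and -0.86 against -0.16 and 0.06. Both pairs were apart, as at every called gene. Of 30 metalloproteases and inhibitors, 6 were lower, led by Adam8, and 2 were higher, Mmp3 (0.64) and the urokinase receptor gene Plaur (0.33), with 5 of the 8 called on the sample channel.

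Growth factor and signalling lists moved in both directions, beside 4.89% higher and 5.16% lower over all genes. Of 40 growth factor receptors and ligands, 7 were lower and 6 higher (median -0.03; 8 of 13 on the sample channel). Fgf7, an epithelial growth factor, was at -0.71 and -0.78 against 0.85 and 0.81, a difference of -1.57 (SE 0.0677, limma adjusted p 1.89e-07). Igfbp6, which binds insulin-like growth factors, was at -0.96 and -1.13 against 0.30 and 0.13. In the opposite direction, Efnb1, an ephrin ligand, was at 1.40 and 1.55 against 0.65 and 0.57. Of 32 TGF-beta, BMP and Id genes, 3 were lower and 4 higher (5 of 7 on the sample channel). Ltbp2, a latent TGF-beta binding protein, was at -1.19 and -1.23 against 0.10 and 0.07. Id2, an inhibitor of helix-loop-helix factors, was at -0.09 and -0.23 against -0.89 and -1.18, and Id4 at 0.89 and 0.82 against -0.13 and -0.26; both were above background on 1 of the CDH1 control arrays. Beside the 10.1% called over all genes, 2 of 30 p53 targets were higher and 3 lower (3 of the 5 on the sample channel). Of 38 actin, SRF and YAP genes 3 were higher and 4 lower (1 of 7), and of 30 Wnt response genes 2 were higher and 1 lower (2 of 3). Of 34 AP-1 and immediate early genes 6 were lower and 2 higher (5 of 8), with the zinc finger factor gene Klf4 at -0.18 and -0.15 against 0.66 and 0.65.

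Stress and metabolic genes that were called were more often lower than higher, beside 4.89% higher and 5.16% lower over all genes. Of 29 genes of the unfolded protein response, 10 were lower and 0 higher (median -0.20; 6 of 10 on the sample channel). Creld2, a chaperone of the endoplasmic reticulum, was at -0.20 and -0.17 against 0.53 and 0.45, but its sample part was -0.32 and its sample channel call was lost. Of 31 Atf4 targets, 5 were lower and 1 higher (5 of 6 on the sample channel). Trib3, a pseudokinase induced by Atf4, was at -1.0 and -1.0 against -0.24 and -0.25, with a sample part of -1.06. Of 24 glycolysis genes, 7 were lower and 1 higher (median -0.13; 7 of 8 on the sample channel). Aldoc, an aldolase, was at -1.32 and -1.27 against -0.29 and -0.13, and the glucose transporter gene Slc2a1 at -0.45 and -0.69 against 0.08 and -0.01. These lines did not overlap, as at every called gene. Of 28 hypoxia genes 7 were lower and 1 higher, but 3 of the 8 held on the sample channel. The hypoxia motif ACGTG, on either strand, lay in all 5 lower members with a promoter in the table, in 12 of 16 others (75%) and in 21.8% of all genes.

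Lipid and antioxidant genes were also called lower more often than higher, beside 4.89% higher and 5.16% lower over all genes. Of 28 cholesterol synthesis genes 7 were lower and 3 higher (median -0.08; 3 of 10 on the sample channel). Of 22 fatty acid synthesis genes 7 were lower and 0 higher (median -0.17; 5 of 7), led by Scd1, the stearoyl-CoA desaturase, at -0.12 and -0.23 against 0.95 and 0.83. Of 37 NRF2 genes 9 were lower and 2 higher (median -0.15; 5 of 11). Aox1, aldehyde oxidase, was at -0.77 and -0.74 against 0.53 and 0.55, and Txnrd1, thioredoxin reductase, was higher at 0.21 and 0.07 against -0.44 and -0.45. Of 17 metallothionein and metal transport genes, 5 were lower, led by Slc39a4, and 2 higher (4 of 7 on the sample channel). Among heat shock genes, 3 of 27 were lower and 3 higher (3 of 6), with Hspb1, the small heat shock protein, at -0.48 and -0.46 against 0.64 and 0.62. Among lysosomal genes 4 of 35 were lower (11.4%) and 3 higher (8.57%), and 3 of these 7 were called on the sample channel.

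DNA replication genes were higher in the Cluster 1 control line. Of 43 tested, 14 were higher (32.6%, against 4.89% over all genes) and 0 lower (median 0.16; 38 differences positive), and 7 of the 14 were called on the sample channel. Over the alternatives 7 to 18 were higher. The motif TTTCCCGC or TTTGGCGC, on either strand, lay in 2 of 12 higher members with a promoter listed (16.7%). It lay in 10 of 23 other members (43.5%) and in 1.8% of all genes. The mean over 41 members was 0.47 and 0.52 in the Cluster 1 control line and 0.27 and 0.27 in the CDH1 control line. Ccne1, cyclin E1 of the G1/S transition, was at 1.40 and 1.31 against 0.70 and 0.80, a difference of 0.60 (SE 0.0824, limma adjusted p 0.000540) with a sample part of 0.91. Mcm5, a subunit of the replicative helicase, was at 0.54 and 0.60 against 0.05 and 0.09. Lines did not overlap at either gene, as at every called gene. Of 45 mitosis genes 4 were higher (8.89%) and 1 lower (2.22%, against 5.16% over all genes), 1 of them on the sample channel.

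Ribosome biogenesis genes were called higher by ratio, and most of these calls were lost on the sample channel. Of 39 tested, 13 were higher (33.3%, against 4.89% over all genes) and 1, Myc, was lower (median 0.22). But 1 of the 14 was called on the sample channel. The median sample part was 0.10 over the 39 and -0.09 over the 14. Npm1, nucleophosmin, was at 0.58 and 0.43 against 0.00 and 0.04, a ratio difference of 0.48 made of -0.68 in the sample and -1.16 in the reference channel. Its direction therefore turns with the channel, as did those of the nucleolar helicase gene Ddx21 and Pa2g4. Of 37 oxidative phosphorylation genes 5 were higher, 0 of them on the sample channel. Of 47 cytosolic ribosomal protein genes 1, Rpl13, was higher (median 0.11), and not on the sample channel.

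Proliferins, placental hormones of the prolactin family that growing fibroblasts and carcinoma cells can also express, were higher. Of 4 genes tested in the list of proliferins and their prolactin family, 3 were higher on both readings (median 0.69), against 4.89% higher over all genes. The 3 were the proliferin genes Prl2c5 and Prl2c3, and Prl3d1 of the wider family. Prl2c5 was at 1.48 and 1.52 against 0.67 and 0.48, a difference of 0.93 (SE 0.0885, limma adjusted p 3.07e-05), and Prl2c3 at 1.51 and 1.43 against 0.70 and 0.58. Their sequences are near-identical, so these may be a single signal. Prl3d1, placental lactogen, was at 0.58 and 0.48 against -0.05 and 0.00, but its call was lost on leaving out any of the 4 control arrays and with outlier spots kept.

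Most genes that the series was built around were not called between the control lines. The exceptions were Fn1, given above with the mesenchymal genes, and Zeb2. Cdh1 was at -0.01 and 0.09 against 0.03 and 0.09, a difference of -0.02 (SE 0.126, limma adjusted p 0.969), and it was not well above background in the CDH1 control line, where its level is only a bound. It was at 0.57 and 0.77 in CDH1 cells and 1.21 and 1.29 in Cluster 1 cells. A probe within the mouse Cdh1 transcript reports an introduced cDNA only if that cDNA holds the probe's sequence, which the labels do not say. Zeb1, the E-cadherin repressor targeted by miR-200, was at -1.38 and -1.93 against -1.29 and -1.32 (limma adjusted p 0.408). Its relative Zeb2 was lower, at 0.34 and 0.50 against 0.80 and 0.75 (limma adjusted p 0.00816), but its 3 other probes ranged from -0.15 to 0.51. The Zeb2 call was lost with averaged probes (-0.025), with outlier spots kept, without Puro vec control for Cluster 1 A and without CDH1 Puro vec control A. The differences of Sec23a (0.13), Vim (0.12), Epcam (0.23), Krt8 (-0.33) and Krt18 (0.04) were not called. Of 55 epithelial genes 5 were higher and 5 lower (9.09% each, beside 4.89% and 5.16% over all genes). The list's median was -0.02, and 7 of the 10 were called on the sample channel. Besides Lsr and Cd24a, Perp, a desmosomal p53 target, was higher at -0.99 and -1.04 against -2.29 and -2.20.

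**Figure D3:**
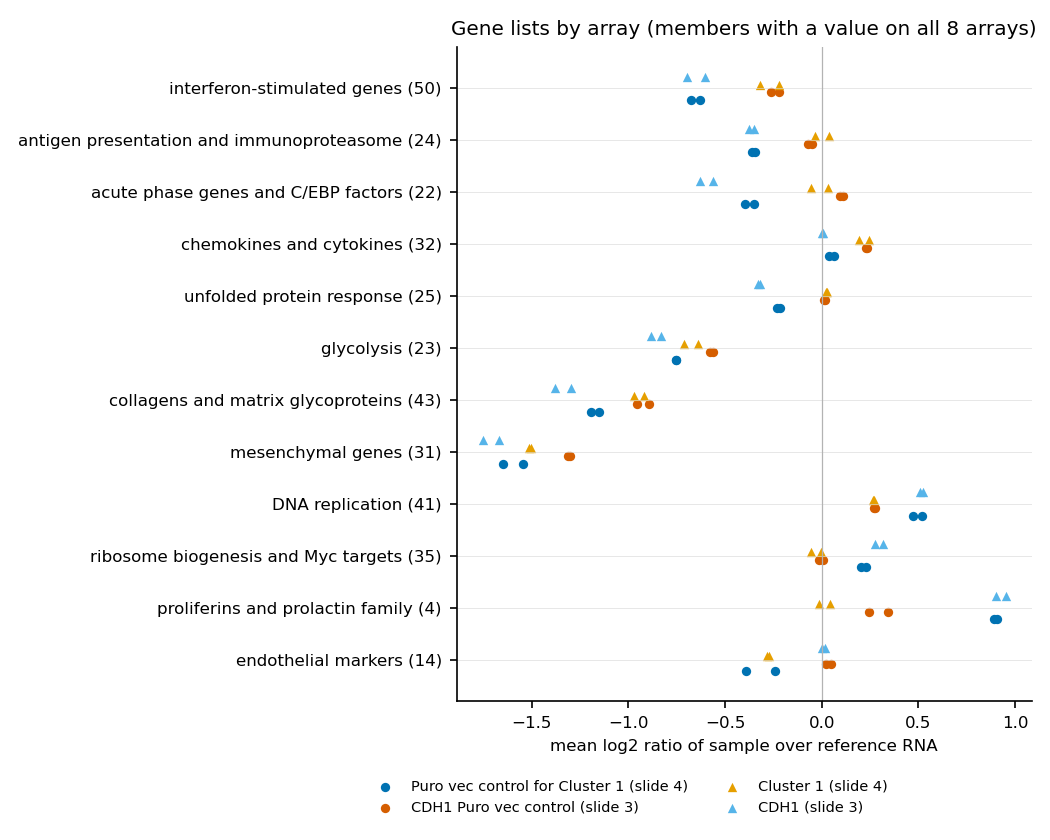
Mean log2 ratio of sample over reference RNA (horizontal axis) of gene lists, over the members with a value on all 8 Cy5 arrays, 1 point per array coloured by group. The interferon list reads -0.63 and -0.68 in the Puro vec control for Cluster 1 and -0.26 and -0.22 in the CDH1 Puro vec control.

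Markers of other cell types were checked because the line comes from a tumour. Over all genes tested 5.16% were called lower. Of 18 macrophage markers tested, 1 was lower in the Cluster 1 control line on both readings, Cd14, at -0.98 and -0.91 against -0.12 and 0.07. The summed sample signal of the 20 macrophage probes was 4489 and 4428 there and 5151 and 4456 in the CDH1 control line, with 16 and 17 markers above background against 12 and 5. The differences of 14 lymphocyte markers ran from -0.60 to 0.32, and 0 of them were called. Of 15 adipocyte and fibroblast markers 4 were lower (2 of them on the sample channel), led by Gsn, the actin-severing gelsolin, at -2.96 and -2.94 against -1.64 and -1.69, and the summed signal was 6753 and 6568 against 8785 and 9540. Endothelial markers showed 6 of 15 lower by ratio (median -0.26), and 0 of the 6 on the sample channel. Their summed sample signal was higher in the Cluster 1 control line, 3093 and 2843 against 2468 and 2530, and Cdh5 and Cldn5 had reference parts of 1.54 and 1.30 with sample parts of 0.79 and 0.61. The part of these cell types in the lists above was not tested.

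Called genes were uneven along the genome. Of 939 genes with probes on chromosome 8 (mm7, the array's annotation), 170 were higher (18.1%) and 24 lower (2.56%) in the Cluster 1 control line, against 4.93% and 5.21% over all chromosomes. On chromosome 15 the reverse held, with 121 of 781 genes lower (15.5%) and 7 higher (0.896%). The median difference was 0.08 on chromosome 8 and above 0 in all 13 of its windows of 10 Mb, from 0.03 to 0.11. It was -0.06 on chromosome 15 and above 0 in 1 of 10 windows. Over all chromosomes 157 of 248 windows had a median above 0. Other chromosomes were as one-sided by this count, with 6 of 6 on chromosome 19, 14 of 15 on chromosome 6 and 1 of 19 on chromosome 1. The offset of the background correction draws ratios of dim probes to 0, and among the brightest of 3 equal classes of genes by level the medians were 0.24 on chromosome 8, -0.18 on chromosome 15 and 0.03 elsewhere. In that class 85.8% of chromosome 8 genes were positive, against 56.2% elsewhere, and 21.8% of chromosome 15 genes.

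On chromosome 8 the shift lay in the CDH1 control line. Measured as each array's median deviation over chromosome 8, its arrays were at -0.06 and -0.07, and the 6 other Cy5 arrays between 0.01 and 0.03. On chromosome 15 its arrays were the highest, at 0.05 and 0.03, but the other groups did not lie together. Cluster 1 cells were between, at 0.02 and 0.01. The Cluster 1 control line was at -0.01 and -0.03 and CDH1 cells at -0.03 and -0.04. Cluster 1 minus CDH1 gave medians of -0.02 and 0.04 on these chromosomes. Between repeats of the 8 groups, chromosome medians differed by -0.03 to 0.02. On the sample channel as well, 84 genes of chromosome 8 (8.95%) were called higher and 67 of chromosome 15 (8.58%) lower. Over all 18983 genes, 379 higher and 511 lower calls held on that channel. Chromosome 6 came next with 99 higher genes (10.0%), and its window from 100 to 110 Mb had the median farthest from 0 of 248 windows (0.14). The ubiquitin ligase gene Pdzrn3, at 1.23 and 1.26 against 0.66 and 0.51, and the calcium channel gene Itpr1, at 0.88 and 0.82 against 0.30 and 0.33, lie in that window, although Pdzrn3 had a sample part of -0.08. Without chromosomes 8 and 15, 1495 genes were called. The shares moved with the arrays and the filter: chromosome 8 had 11.9%, 11.3% and 11.8% higher and chromosome 15 had 9.39%, 9.91% and 9.33% lower without Puro vec control for Cluster 1 A, its repeat B, or CDH1 Puro vec control B. Over genes above background on all 4 control arrays they were 42.4% and 33.7%. That filter called 1306 higher and 1261 lower of 9436 genes over the whole array. With outlier spots kept the shares were 8.09% and 2.18%, beside 361 higher and 166 lower of 18995 genes.

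**Figure D4:**
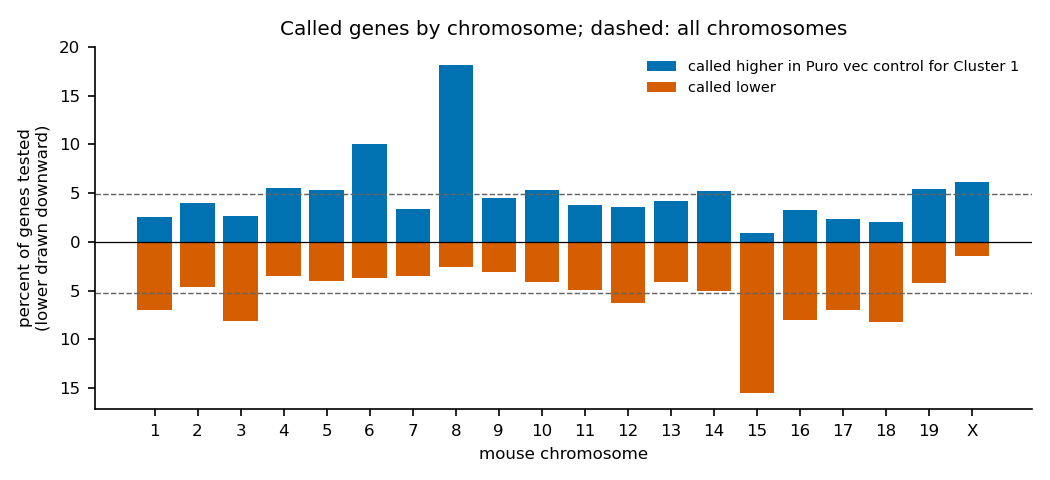
Percent of genes tested on each mouse chromosome (horizontal axis) that were called higher (upward) or lower (drawn downward) in the Puro vec control for Cluster 1; dashed lines give all chromosomes. Chromosome 8 reaches 18.1% higher and chromosome 15 15.5% lower.

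Cluster 1 and CDH1 cells span the same slides as the control lines and use other arrays, and they differed in the opposite direction more often than in the same one. Between them 2938 of 18979 genes (15.5%) were called, 1595 higher (8.40%) and 1343 lower (7.08%) in Cluster 1 cells. Without Cluster 1 A the count was 1631 and without CDH1 B 1670, and with outlier spots kept it was 884. Of the 1908 genes of the control comparison, 717 (37.6%) were called there in the opposite direction and 157 (8.23%) in the same direction, which are 24.4% and 5.34% of the 2938. Across 18967 genes, which are not independent and share the slides' reference signals, the differences of both comparisons correlated at r = -0.27. The interaction, which tests whether the differences are unequal, was called at 3229 of 18967 genes (17.0%), 1565 higher (8.25%) and 1664 lower (8.77%), and at 1425 of the 1908. C3 was -1.57 between the controls and 2.17 between the overexpressing lines, and Il11 0.98 and -1.39. Interferon genes were lower between the controls (23 lower, 0 higher) and higher between Cluster 1 and CDH1 cells (25 higher, 0 lower), with 17 called in both. DNA replication genes were 14 higher and 0 lower between the controls, and 0 higher and 18 lower between the overexpressing lines.

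Same-direction calls included Lsr (1.35 and 1.47), Pir, an iron-binding nuclear protein (0.87 and 0.87), Rhoj, a Cdc42-like GTPase (0.88 and 0.84), Hspb1 (-1.11 and -0.60) and Itgb7 (-0.96 and -0.71). Their sample parts between the controls were 1.45, 1.02, 0.49, -1.27 and -0.89. On the sample channel 72 of the 157 were called. The 5 endothelial genes lower in both comparisons belong here as well, with none called on the sample channel between the controls.

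**Figure D5:**
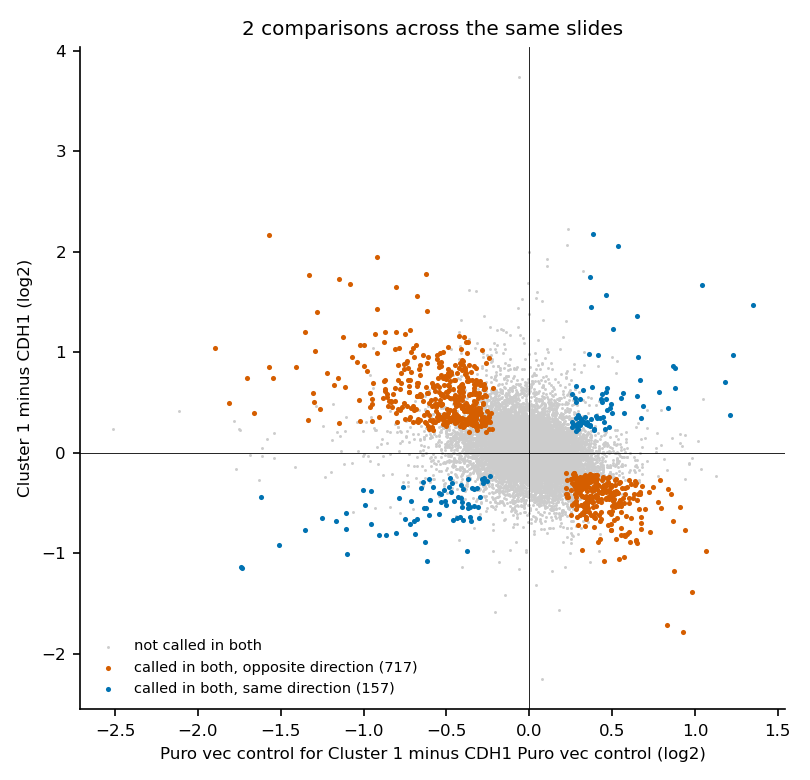
Difference between the Puro controls (horizontal axis, log2) against the difference between Cluster 1 and CDH1 cells (vertical axis, log2), 1 point per gene, with genes called in both marked by direction. Of these, 717 lie in the opposite-sign quadrants and 157 in the same-sign quadrants.

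Each pairing of the 4 Cy5 groups, added after seeing the data, gave its own count, and pairings that have a group in common share its arrays. CDH1 cells against the Cluster 1 control line, on different slides, gave 455 of 18982 genes (2.40%). The CDH1 control line against Cluster 1 cells, also on different slides, gave 1641 (8.65%). Within slides, Cluster 1 cells against their own control gave 1568 (8.26%) and CDH1 cells against theirs 2752 (14.5%). CDH1 cells were thus nearer, by count of calls, to the control on the other slide than to the control labelled as theirs. What lies behind this was not tested.

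The order of the arrays was also counted, after seeing the data. Of 1789 called genes with a value on all 8 Cy5 arrays, 1160 (64.8%) put both CDH1 control arrays beyond all 6 others, and 442 (24.7%) both Cluster 1 control arrays. Over all 17501 such genes the shares were 18.1% and 9.33%, beside 18.9% for CDH1 cells and 17.3% for Cluster 1 cells. Since a call requires the control lines to differ, these shares describe which line lay outside and are no test. Among chromosome 8 genes called higher the CDH1 control line was outside at 129 of 158 (81.6%), and among 69 genes past 2-fold at 54 (78.3%). Among the called interferon genes it was outside at 10 of 22 (45.5%). In the mean ratio of that whole list, given above, Cluster 1 cells lay beside it.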

How the data were processed

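Each sample was hybridised to a 2-colour Agilent array (design 014868, 45018 spots), and the deposited scanner files hold spot intensity values that the authors extracted with Agilent Feature Extraction 9.5.3.1, per the file headers. The deposited value table holds, in 16 columns, the ratio that the scanner software computed, as a log10 ratio, and matched it within 8.06e-08; it was not used for the tests. RNA came from 4TO7 cells, per the labels.

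Intensities were read with limma 3.58.1 in R 4.3.3. Spots marked as outliers or non-uniform (335 to 1675 per array) were set missing, background was corrected by normexp with an offset of 50, and loess was applied within arrays, giving the 1639 control spots no weight. Spots of a probe were averaged, and 27090 of 41174 probes passed the filter on dim signal. A probe passed if it was well above background on both arrays of at least 1 group, and the passing probe with the highest mean sample signal stood for a gene, giving 18983 genes tested; 12595 were named by accession, 1901 by symbol and 944 by synonym through RefSeq's gene table, and 3555 kept the file's name. Group means of all 16 arrays were fitted with lmFit and eBayes, at a Benjamini-Hochberg threshold of 0.05. Tested on simulated differences, the fit recovered 64% of 100 genes at 0.5 and 94% of 100 at 1 (log2), with 4 false calls over 18902 genes. The simulated noise was independent between genes and arrays and held no slide effect. In the data slide and control line coincide, so these rates check the code and do not measure false calls here. Sample and reference parts came from Aquantile normalisation after loess. Motifs were also counted for other lists with at least 5 members called in 1 direction. Among these, lower and other members held the motif at 2 of 11 and 3 of 12 for antigen presentation, against 3.99% of all 27025 genes. For cholesterol synthesis the counts were 0 of 5 and 0 of 13 (0.0999% of all genes), and for metalloproteases 0 of 4 and 4 of 17 (5.95%). For Atf4 targets they were 1 of 5 and 1 of 20 (1.08%), and for the unfolded protein response 2 of 8 and 5 of 19 (0.137%). NRF2 genes gave 3 of 9 and 9 of 22 (14%), and AP-1 genes 0 of 4 and 0 of 21 (5.95%). Metallothionein and metal transport genes gave 1 of 3 and 4 of 10 (14.2%).

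The members, the 35 gene lists and the tests were chosen with earlier results of these data known. The 170 named genes are the 15 largest rises and falls above background on all 4 control arrays, the largest one-sided detections, up to 4 called members of each list, the interaction's extremes, genes of the farthest window and the series' own genes; further called list members are named where a list's direction is described, chosen after their values were seen. Letters A and B were not taken to pair samples, as same-letter deviations of the control lines correlated at r = 0.06. The number of arrays limits precision. Alternatives concerned background, normalisation, filter, probes, arrays fitted, slide and left-out arrays. The splits by channel, pairing, level and order, and the count without chromosomes 8 and 15, were chosen after seeing the data. Figures were drawn with matplotlib 3.10.9.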

Additional observations from a re-analysis of the deposited data

Results flagged for a closer look

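The difference between the control lines and the difference between Cluster 1 and CDH1 cells were unequal, by limma's interaction test at an adjusted p below 0.05, at 3229 of 18967 genes. The values that follow are the log2 difference between the controls minus that between the overexpressing lines. The 5 genes with the largest positive interaction named by rule were Prl2c5 (2.71), Prl2c3 (2.55), the cytokine gene Il11 (2.37), 1700012B09Rik (2.33) and the Wnt inhibitor gene Apcdd1 (1.75). The 5 with the largest negative interaction were the complement gene C3 (-3.74), the matrix gene Mgp (-3.10), Cbr2 (-2.94), Cebpd (-2.88) and the organic anion exporter gene Abcc3 (-2.86). At Cbr2 the reference part of the difference between the controls was 1.85. With 2 arrays per group, no array could be tested as standing apart within its group.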

How the results depend on the processing

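With outlier spots kept, 527 genes were called between the controls (361 higher, 166 lower), 884 between Cluster 1 and CDH1 cells and 1158 by interaction; chromosome 8 had 8.09% higher, chromosome 15 had 2.18% lower and a median of -0.025. The medians of chromosomes 8 and 15 were 0.14 and -0.11 with an offset of 10, and chromosome 8 reached 0.25 with the scanner's processed signals. Median centring, which moved the median of all genes to 0.06, gave 559 lower genes (65.7% of calls higher, against 48.6%), 8.19% lower on chromosome 15, and medians of 0.15 and -0.022. The sample channel alone gave 1412 higher genes, 5130 between the overexpressing lines and a chromosome 8 median of 0.15. It turned Scgb3a2 (1.41), H2-K1 (0.012), Kif23 (-0.023), Mdm2 (-0.15), Cald1 (-0.48), Tcf7l1 (-0.31), Uqcrb (-0.82), Ddx21 (-0.34), Pa2g4 (-0.23), Npm1 (-0.68), Mal2 (0.72), Cd9 (0.051), Cdh5 (0.79), Cldn5 (0.61), Emcn (0.39), Pdzrn3 (-0.084) and the uncalled Cdh1 (0.48) and Sec23a (-0.63). Genes above background on all 4 control arrays gave 42.4% and 33.7% on chromosomes 8 and 15, with medians of 0.18 and -0.15. Over all 9436 genes under that filter, 1306 were higher and 1261 lower. Fitting the 4 control arrays alone gave 608 higher genes and 39.7% of calls higher. The cause of these changes was not tested. Leaving out 1 array gave 1096 to 1426 calls between the controls (477 to 740 higher, 617 to 686 lower), 1631 to 2007 between the overexpressing lines, and, on chromosomes 8 and 15, shares of 11.3% to 13.96% higher and 9.33% to 10.4% lower. The replicate block gave 1870 calls and lost none of the named genes. The slide as a random block (correlation 0.05) gave 1700. Of 161 called genes named by rule, 90 lost their call with outlier spots kept. Among them were Rtp4, Psmb9, Ccl7, Aldoc, Scd1, Aox1, Id2, Id4, Perp, Ngfr and Vcam1. The sample channel alone lost 38 of the 161 and turned 16 more. No alternative except the sample channel alone turned a called named gene. Depth is limited by signal: 50.7% of genes were above background on CDH1 Puro vec control B.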
